A study of Mus musculus with 6 samples.

Results

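The mevalonate pathway before squalene was represented by 8 enzyme genes chosen by function, Acat2, Hmgcs1, Mvk, Pmvk, Mvd, Idi1, Fdps and Ggps1. They, the related lists and the markers were chosen with earlier results of these data known. Their counts set against all genes are therefore descriptions, not independent tests. A gene was counted as measured where the platform annotation gave it a row of its own, and 6 of the 8 had one, out of 22180 genes in all. Where a gene has several rows the brightest one over the 6 arrays would be taken, but each of the 6 had 1 row, so no row was picked by its values. Idi1, the isomerase of isopentenyl diphosphate, lay only on a row shared with Gm13502, which RefSeq lists as a pseudogene, and Acat2, the cytosolic acetoacetyl-CoA thiolase, was not among the named rows. Neither is given a value here, and the reductase that makes mevalonate was not analysed here either.

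This pathway builds isoprenoids from acetyl-CoA. A thiolase and a synthase make HMG-CoA, a reductase makes mevalonate, a pair of kinases and a decarboxylase turn it into isopentenyl diphosphate, and prenyl diphosphate synthases join these units into farnesyl and geranylgeranyl diphosphate. Farnesyl diphosphate is the branch point: it feeds squalene and cholesterol, and with its longer relative it also feeds protein prenylation, ubiquinone and dolichol. Many genes of the pathway are targets of the transcription factor SREBP-2, which is processed when sterols in the endoplasmic reticulum are low.

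The arrays held RNA from cardiomyocytes of hearts of C57BL/6 mice aged 1 day, cultured and kept for 12 h at 2% oxygen. FGF21, an endocrine fibroblast growth factor, was present at 1 µg/ml in 3 samples and absent from 3, with 1 array each. Both groups were hypoxic, so FGF21 is the sole labelled difference between them. The sample titles call them biological replicates but do not say whether they came from separate litters or cultures, so p-values here reflect only how far these samples spread, part of which may be technical.

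The cells were enriched by letting other cells attach for 1 hour before the suspension was replated, so other heart cells can be present. Cardiomyocyte markers were bright in both groups: over 10 genes the mean log2 level was 10.81 to 10.87 with FGF21 and 10.83 to 10.94 without. Fibroblast markers were bright too, at 10.70 to 10.80 with FGF21 and 10.74 to 10.79 without over 8 genes. The endothelial markers differed between the groups, at 7.12, 7.38 and 7.39 with FGF21 against 7.75, 7.60 and 7.51 without over 8 genes, and 7 of the 8 were lower with FGF21 at an unadjusted p under 0.05 of limma, as were 5.11% of all genes. The 4 epicardial markers read 7.80, 7.99 and 7.93 with FGF21 and 7.72, 7.78 and 7.80 without, so the nearest arrays nearly met, at 7.802 and 7.798. Of the 4, 2 were higher at an unadjusted p under 0.05 (6.59% of all genes, 11.7% in either direction), Krt19 at 0.31 ± 0.08 (SE) and Msln at 0.22 ± 0.07 (SE). Upk3b, at 0.08 ± 0.07 (SE), and Wt1, at -0.04 ± 0.08 (SE), had overlapping groups. Leukocyte markers ran from 8.10 to 8.23 with FGF21 and from 8.05 to 8.12 without over 5 genes, of which Ptprc, at 0.20 ± 0.08 (SE), and Cd68, at -0.20 ± 0.06 (SE), had such a p in opposite directions. Smooth muscle markers ran from 9.30 to 9.33 with FGF21 and from 9.27 to 9.36 without over 4 genes, of which Myh11, at 0.16 ± 0.06 (SE), had such a p. Of the cardiomyocyte and fibroblast markers 0 had such a p, and the markers named here were picked after their values were seen. On bulk arrays fewer cells of a type and less RNA per cell cannot be told apart, and the part of these differences in the values of the pathway was not tested.

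The windows around the transcription start are shown for the pathway's own genes, because SREBP-2 acts through short elements close to the start, usually beside sites for NF-Y and Sp1. RefSeq promoter windows on GRCm38.p6, from 250 bases before the start to 50 after it, were found for 7 of the 8 genes, and Fdps was not among them. Of the measured genes with a window, the 3 with the smallest p and the 1 with the largest p are printed. Capitals mark a match, on either strand, to TCACCCCAC (the core letters of the sterol regulatory element of the low-density lipoprotein receptor gene), to its looser form TCACNCCAC, which contains the first, to CCAAT (NF-Y), to GGGCGG (Sp1) or to CACGTG (E-box). Windows lie at chr13:119690101-119690400 (+ strand) for Hmgcs1, chr5:114444019-114444318 (+ strand) for Mvk, chr3:89454291-89454590 (+ strand) for Pmvk and chr13:14063439-14063738 (- strand) for Ggps1.
Hmgcs1: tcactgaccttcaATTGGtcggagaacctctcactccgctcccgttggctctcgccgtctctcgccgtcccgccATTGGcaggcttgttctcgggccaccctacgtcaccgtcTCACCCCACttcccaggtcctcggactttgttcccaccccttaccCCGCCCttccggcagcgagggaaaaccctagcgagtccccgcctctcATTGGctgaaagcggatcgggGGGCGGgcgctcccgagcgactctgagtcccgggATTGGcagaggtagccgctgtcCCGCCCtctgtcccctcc
Mvk: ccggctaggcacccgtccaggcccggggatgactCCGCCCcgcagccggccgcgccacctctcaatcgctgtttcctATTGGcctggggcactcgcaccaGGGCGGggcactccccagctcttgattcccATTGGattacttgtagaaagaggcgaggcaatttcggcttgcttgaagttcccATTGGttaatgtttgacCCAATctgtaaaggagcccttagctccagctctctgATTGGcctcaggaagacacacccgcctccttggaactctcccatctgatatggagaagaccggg
Pmvk: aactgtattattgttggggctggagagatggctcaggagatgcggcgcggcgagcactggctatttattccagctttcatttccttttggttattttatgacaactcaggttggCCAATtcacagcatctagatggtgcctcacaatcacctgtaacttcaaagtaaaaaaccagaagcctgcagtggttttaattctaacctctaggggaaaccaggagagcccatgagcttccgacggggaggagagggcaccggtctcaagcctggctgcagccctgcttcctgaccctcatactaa
Ggps1: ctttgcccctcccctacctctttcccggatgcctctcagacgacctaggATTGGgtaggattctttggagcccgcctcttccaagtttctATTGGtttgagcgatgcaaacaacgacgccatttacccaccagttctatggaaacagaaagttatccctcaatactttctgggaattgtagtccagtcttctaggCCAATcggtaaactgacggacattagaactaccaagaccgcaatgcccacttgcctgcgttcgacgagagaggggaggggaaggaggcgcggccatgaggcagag

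Hmgcs1 held the core sterol element, starting at position -137 from the start, together with 4 NF-Y and 3 Sp1 matches. The core element was found in 1 of the 7 windows, against 0.551% of 32851 RefSeq windows of that length, and the looser form in the same 1, against 1.24%. CCAAT was found in 6 of 7 windows, against 37.4%, GGGCGG in 5 of 7, against 35.7%, and CACGTG in 0 of 7, against 7.15%. Mvk had 5 NF-Y and 2 Sp1 matches, Ggps1 had 3 NF-Y matches, and Pmvk had 1. Pmvk had 2 windows, and the other one held 0 matches of any of these motifs. A match describes letters only, and a window without one says nothing about binding.

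The question was which steps of the pathway differed between hypoxic cells with FGF21 and hypoxic cells without it. Fdps, which makes farnesyl diphosphate, and Hmgcs1, which makes HMG-CoA, had the widest differences, 1.89-fold and 1.69-fold higher with FGF21. The 4 other measured enzymes, Mvk, Pmvk, Mvd and Ggps1, were 1.06-fold to 1.18-fold higher in the mean, with overlapping groups. None of the 6 passed an adjusted p of 0.05 over all genes, as none of the 22180 genes did. Values below are log2 values of the robust multi-array average (RMA), and differences are with FGF21 minus without, with the standard error (SE) of limma.

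At the entry to the pathway, Hmgcs1 (transcript cluster 17290173), the cytosolic HMG-CoA synthase, read 10.15, 9.57 and 9.63 with FGF21 and 9.07, 8.95 and 9.07 without. All 3 arrays with FGF21 lay above all 3 without, with a gap of 0.49 between the nearest arrays, and replicate 1 with FGF21 stood above its own group. The group means were 9.78 ± 0.32 with FGF21 and 9.03 ± 0.07 without (SD, n = 3 each). The log2 difference was 0.75 ± 0.14 (SE), a 1.69-fold difference with a 95% interval of 1.37 to 2.08, and limma's adjusted p over all genes was 0.119. Without the high array the difference was 0.57. Among all genes it ranked 10 by the size of a positive difference and 46 by p.

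Mvk (17440954), mevalonate kinase, read 7.06, 6.97 and 6.94 with FGF21 and 6.84, 6.96 and 6.59 without. The groups overlapped by a narrow margin, and replicate 3 without FGF21 was the low array. The log2 difference was 0.20 ± 0.09 (SE), with an interval from -0.01 to 0.40 and an adjusted p of 0.455 by limma. It was 0.10 without that low array.

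Pmvk (17399474), phosphomevalonate kinase, which adds the next phosphate, read 8.29, 7.94 and 7.75 with FGF21 and 7.67, 7.75 and 7.82 without. Replicate 1 with FGF21 was the high array, while replicate 3 with FGF21 lay within the range of the cells without it. The log2 difference was 0.24 ± 0.12 (SE), with an interval from -0.02 to 0.51 and an adjusted p of 0.467 by limma. Without replicate 1 with FGF21 the difference was 0.09.

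Mvd (17513681), the diphosphomevalonate decarboxylase that yields isopentenyl diphosphate, read 6.92, 7.09 and 6.82 with FGF21 and 6.80, 6.81 and 6.95 without. The arrays of both groups were interleaved. The log2 difference was 0.09 ± 0.08 (SE), and the 95% interval of the fold ran from 0.935 to 1.21, with an adjusted p of 0.708 by limma. It ran from 0.02 without replicate 2 with FGF21 to 0.15 without replicate 3 with FGF21.

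Fdps (17406908), farnesyl diphosphate synthase, read 9.60, 9.32 and 9.13 with FGF21 and 8.31, 8.46 and 8.53 without. The groups were separated by a gap of 0.60, and the arrays with FGF21 spread more widely than those without. The means were 9.35 ± 0.24 with FGF21 and 8.43 ± 0.11 without (SD, n = 3 each). The log2 difference was 0.91 ± 0.11 (SE), 1.89-fold with a 95% interval of 1.58 to 2.25, and limma's adjusted p was 0.0685. It ranked 3 of 22180 genes by p and 3 by the size of a positive difference. Leaving out each array in turn moved the difference between 0.79 and 1.03.

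Ggps1 (17290729), geranylgeranyl diphosphate synthase, which lengthens farnesyl diphosphate away from the sterol branch, read 8.27, 8.65 and 8.66 with FGF21 and 8.44, 8.47 and 8.38 without. Replicates 2 and 3 with FGF21 were above every array without it, and replicate 1 with FGF21 was below every one. The log2 difference was 0.09 ± 0.10 (SE), with the interval of the fold from 0.912 to 1.25 and an adjusted p of 0.751 by limma. It was 0.22 without replicate 1 with FGF21 and 0.03 without replicate 3 with FGF21.

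**Figure D1:**
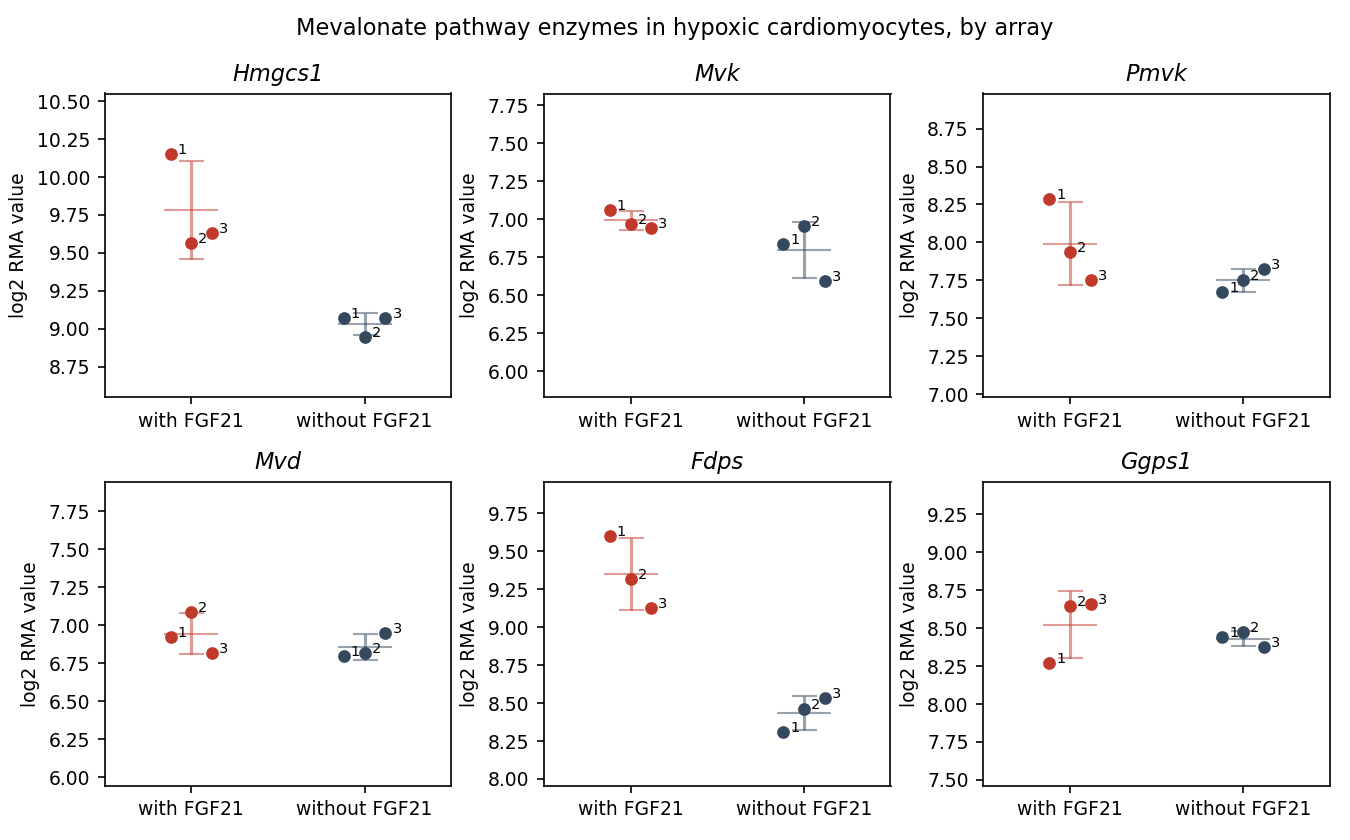
Log2 RMA value of each measured enzyme (vertical axes, each spanning the same range) on the 3 arrays with FGF21 (left) and the 3 without (right). Numbered points are replicates, and bars are the mean and SD. Hmgcs1 and Fdps have groups that do not overlap, while the other 4 genes overlap.

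**Figure D2:**
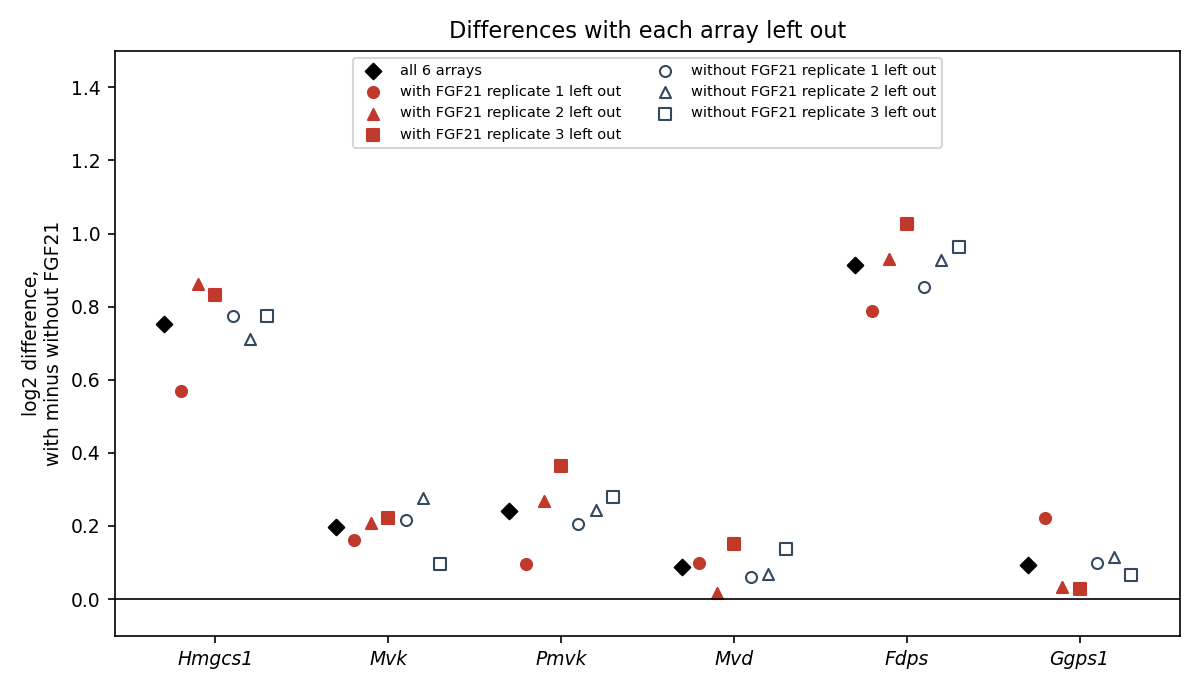
Log2 difference, with minus without FGF21, of each enzyme with all 6 arrays (diamonds) and with 1 array left out (other marks). Fdps ranges from 0.79 to 1.03 and Hmgcs1 from 0.57 to 0.86, while Pmvk drops to 0.09 and Mvk to 0.10.

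Read against the whole table, the count of genes past an adjusted p of 0.05 was 0 of 6, where 0% of all genes were called. At an adjusted p under 0.1 it was 1 of 6 (Fdps), where 0.126% of all genes were called in either direction and 0.0857% as higher. At an unadjusted p under 0.05 it was 2 of 6 (Fdps and Hmgcs1), both higher, where 11.7% of all genes were called and 6.59% as higher. Groups did not overlap for those 2 genes, which are higher with FGF21, and for 8.99% of all genes in that direction (17.1% in either direction). All 6 means were higher with FGF21, as were 47.8% of all genes. The median difference of the 6 was 0.22, against -0.01 over all genes. Brighter genes lay slightly higher in general, with a median of 0.05 in the brightest of 5 equal bins. Because the enzymes were chosen with earlier results known, these shares do not test enrichment.

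The adjusted p depended on which genes were tested beside the enzymes and on the settings of the fit. When the dimmer genes, those with a mean under the median gene, were not tested, limma's adjusted p was 0.0155 for Fdps and 0.0450 for Hmgcs1. Limma's unadjusted p moved too, from 1.23e-05 to 4.20e-06 for Fdps and from 0.000259 to 0.000117 for Hmgcs1. With a trend and a robust prior it was 0.0327 for Fdps and 0.0760 for Hmgcs1. With an array left out, Fdps ranged from 0.0708 to 0.269 and Hmgcs1 from 0.0828 to 0.347. With quantile normalization again, limma gave 0.107 for Fdps and 0.182 for Hmgcs1. The ordinary equal-variance statistic gave the highest values, 0.432 for Fdps and 0.476 for Hmgcs1.

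**Figure D3:**
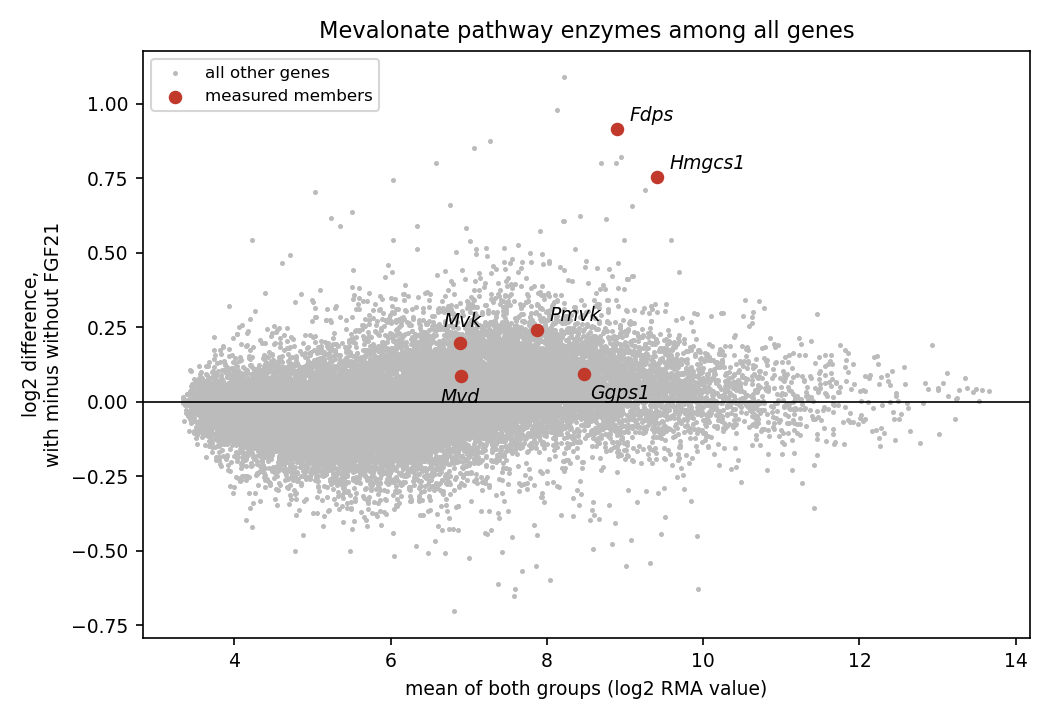
Log2 difference, with minus without FGF21, against the mean log2 RMA value for all 22180 genes (grey) and the 6 measured enzymes (red). Fdps at 0.91 and Hmgcs1 at 0.75 lie at the upper edge, and Mvk, Pmvk, Mvd and Ggps1 lie inside the cloud.

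Neighbouring steps were then compared for unequal differences. On each array the value of the later enzyme minus that of the earlier one was compared between the groups with an exact two-sided permutation test over the 6 samples, for 5 neighbouring pairs of measured genes. With 3 against 3 the smallest p this test allows is 0.1, and no pair could pass. From Hmgcs1 to Mvk the difference was smaller by 0.56, given as -0.56 ± 0.21 (SE), with no overlap between the groups and an exact p of 0.1 (0.167 adjusted over the 5 pairs). From Mvd to Fdps it was larger by 0.83 ± 0.14 (SE), and from Fdps to Ggps1 it changed by -0.82 ± 0.27 (SE), both with an exact p of 0.1 (0.167 adjusted). Between Mvk and Pmvk, at 0.05 ± 0.18 (SE), and between Pmvk and Mvd, at -0.15 ± 0.16 (SE), the exact p was 0.8 and 0.7 (0.8 adjusted for both). With an array left out the first ran from -0.07 (without replicate 1 with FGF21) to 0.18 (without replicate 3 without FGF21), and the second from -0.25 (without replicate 2 with FGF21) to 0.00 (without replicate 1 with FGF21), so neither has a settled sign.

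Ggps1 was also compared with Fdps array by array. Fdps makes the branch-point product, so this ratio sets a step before the branch against a step of 1 arm. Most of the difference between the groups lay in Fdps, whose log2 difference was 0.91, against 0.09 for Ggps1. Ggps1 minus Fdps read -1.33, -0.67 and -0.47 with FGF21, against 0.13, 0.01 and -0.15 without. Every array with FGF21 was below every array without it, and replicate 1 with FGF21 stood apart from its group. Without that replicate the difference of differences was -0.57.

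Replicate 1 with FGF21 was the highest of its group for Hmgcs1, Mvk, Pmvk and Fdps, and the lowest for Ggps1. In the mean over the 6 genes, the arrays with FGF21 read 8.38, 8.25 and 8.15, and those without read 7.86, 7.90 and 7.89. Within the groups, the deviations of Pmvk from its group means ran with the mean deviation of the 5 other enzymes (r = 0.95 over 6 arrays), as did those of Fdps (r = 0.90), while those of Ggps1 ran the other way (r = -0.92). The values were r = 0.45 for Hmgcs1, 0.08 for Mvd and 0.03 for Mvk. These correlations are descriptions over 6 arrays that share a normalization. The endothelial markers were lowest on the same array, replicate 1 with FGF21, at 7.12.

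The pathway after the branch point was set beside it. Of 12 genes from squalene to cholesterol, 11 were measured, and all 11 means were higher with FGF21. Their median log2 difference was 0.80. At an unadjusted p under 0.05, 8 of 11 were higher (6.59% of all genes), and 5 at an adjusted p under 0.1 (0.0857% of all genes), with 0 at 0.05 by limma. This list too was chosen with earlier results known, so its shares do not test enrichment. Cyp51, the lanosterol demethylase, had a difference of 1.09 ± 0.11 (SE), and Msmo1, the sterol methyl oxidase, 0.98 ± 0.14 (SE). Fdft1, the squalene synthase that takes the product of Fdps, differed by 0.80 ± 0.11 (SE), and Nsdhl, a sterol dehydrogenase, by 0.82 ± 0.11 (SE). These 4 are the ones of smallest p, and the list also held genes with small differences, 3 of which are named after their values were seen. Hsd17b7 had 0.20 ± 0.16 (SE), Ebp, the sterol isomerase, 0.14 ± 0.07 (SE), and Tm7sf2, a sterol reductase, 0.06 ± 0.07 (SE). Over the 11 genes the differences ran from 0.06 (Tm7sf2) to 1.09 (Cyp51), a range set by its extremes. All 6 enzymes before squalene lay inside it, but their median was 0.22, against 0.80 for the 11. Whether the steps before squalene differ as a set from those after it was not tested.

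**Figure D4:**
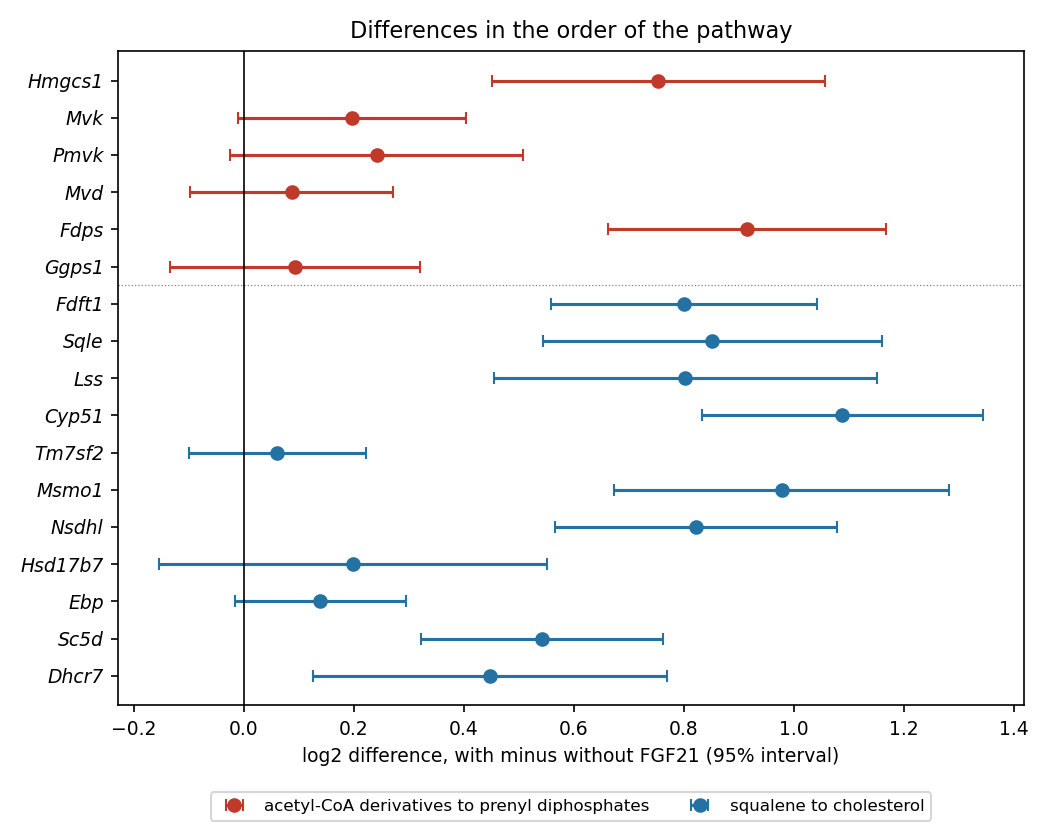
Log2 difference, with minus without FGF21, with its 95% interval from limma, for enzymes before squalene (red) and from squalene to cholesterol (blue), in the order of the pathway from top to bottom. Fdps at 0.91 and Hmgcs1 at 0.75 have intervals above 0, and the intervals of Mvk, Pmvk, Mvd and Ggps1 include 0.

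The control genes of SREBP were mixed. Of 10 written, 8 were measured, 7 with a higher mean with FGF21 (47.8% of all genes), and 4 were higher at an unadjusted p under 0.05 (6.59% of all genes). Their median difference was 0.20, against -0.01 over all genes. Srebf2, which encodes SREBP-2, read 8.47, 8.36 and 8.23 with FGF21 and 8.07, 7.94 and 7.99 without. Its groups did not overlap, and the difference was 0.36 ± 0.08 (SE), with an adjusted p of 0.177 by limma. Insig1 and Insig2, which hold the SREBP complex in the endoplasmic reticulum, differed by 0.80 ± 0.17 (SE) and 0.29 ± 0.06 (SE). Stard4, a sterol carrier, differed by 0.66 ± 0.12 (SE).

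The supply of acetyl-CoA, the substrate of the first step, was covered by 5 genes, of which 3 had a higher mean with FGF21 and 2 a lower one. Acss2, the cytosolic acetyl-CoA synthetase, had a difference of 0.50 ± 0.09 (SE), Acly, the ATP citrate lyase, 0.61 ± 0.12 (SE), and Slc25a1, the mitochondrial citrate carrier, 0.32 ± 0.07 (SE). These 3 were higher at an unadjusted p under 0.05 (6.59% of all genes), and their adjusted p by limma was 0.119, 0.140 and 0.177. The 2 lower genes encode mitochondrial enzymes, Acss1, an acetyl-CoA synthetase, at -0.15 ± 0.07 (SE), and Pdhb, a subunit of pyruvate dehydrogenase, at -0.06 ± 0.06 (SE); their groups did not overlap (17.1% of all genes in either direction), and neither had an unadjusted p under 0.05. The mitochondrial route to ketone bodies, which uses HMG-CoA outside this pathway, had 3 of 5 genes measured, none of them at an unadjusted p under 0.05, with a median difference of -0.05.

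The users of farnesyl and geranylgeranyl diphosphate, among them the prenyltransferases and the enzymes of ubiquinone and dolichol, were measured for 12 of 14 genes. Their median difference was 0.12, with 9 means higher and 3 lower with FGF21, and the median was 0.07 without replicate 2 with FGF21. An unadjusted p under 0.05 was reached by 1 of the 12, which is no larger a share than the 11.7% of all genes. The count was 0 without replicate 1 without FGF21 or with the ordinary statistic, and 2 without replicate 2 without FGF21. It was 3 without replicate 1 with FGF21 or with the replicate block, and 4 with median centring. That gene was Coq2, which prenylates the ring of ubiquinone, at 0.25 ± 0.10 (SE) and an adjusted p of 0.374 by limma, with overlapping groups. Of the 3 genes that process prenylated proteins, Icmt, the carboxyl methyltransferase, had an unadjusted p under 0.05, at 0.18 ± 0.07 (SE) and an adjusted p of 0.357 by limma. Icmt did not reach that unadjusted limit without replicate 1 with FGF21 or without replicate 2 or 3 without FGF21. It also missed it with quantile normalization again.

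Paralogs of the enzymes without a value were dim or did not differ beyond their spread. Acat3, a close relative of Acat2, read 4.65, 4.50 and 4.27 with FGF21 and 4.22, 4.48 and 4.50 without, a level in the lowest 11.0% of genes. Idi2, the relative of Idi1, read 5.79, 6.06 and 6.31 with FGF21 and 6.31, 6.02 and 5.86 without. Both had overlapping groups, with adjusted p-values of 0.822 and 0.981 by limma.

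Likeness to the mean profile of the 6 enzymes was measured as the Pearson correlation over the 6 arrays. Predicted genes, small RNAs and olfactory receptors were left out of the ranking of the other genes. The 5 highest were Nsdhl, Pafah1b3, Fads1, Lpcat3 and Polq, each with r = 0.99. Their log2 differences were 0.82 for Nsdhl, 0.18 for Pafah1b3, 0.43 for Fads1, 0.24 for Lpcat3 and 0.18 for Polq. When the group means were removed first, the 5 highest were Zfp646, Zfp689, Ccna1, Myl3 and Prrxl1, and the lists had no gene in common. These correlations describe 6 arrays that share a normalization, and the first search includes the group difference.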

How the data were processed

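Affymetrix Mouse Gene 2.0 ST arrays measured total RNA of 6 samples. The authors deposited log2 values from RMA (R 3.2.2, package affy), per the submitters' processing notes. RMA subtracts background, makes the arrays' distributions alike and combines probes; small differences of dim genes shrink in it. Genome build and chip definition: not given in the sources used here. The table had 41345 rows, with values from 3.23 to 13.7, array medians from 5.76 to 5.83 (lower on the 3 arrays with FGF21) and 0 identical pairs of arrays. The number of arrays limits the precision.

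Rows were named through the platform annotation: 23521 had 1 symbol, 1814 several and 16010 were unnamed here. Gene numbers were looked up in RefSeq (GRCm38.p6), which held 23328, and 0 symbols changed. The row with the highest mean was kept for each of 22180 genes. Differences were fitted with limma 3.58.1 in R 4.3.3 (lmFit, eBayes, 6 arrays, no covariate, two-sided), adjusted by Benjamini-Hochberg over all genes at 0.05. The fit was tested on simulated data of 22180 genes with this comparison's spread and 100 planted changes of each size. It recovered 98% of changes of 1 on the log2 scale and 100% of changes of 2. Recovery depends on how many changes are planted, so it does not give the share of such changes found in these data. Here Cyp51, at 1.09, had an adjusted p of 0.0507 by limma. Neighbouring steps were compared by an exact permutation test, planned for the 8 genes and run on the 5 pairs that the 6 measured ones form.

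The members, the 7 related lists and the markers were chosen with earlier results of these data known. The lists' named genes were up to 4 of smallest p with an unadjusted p under 0.05, with Srebf2 and the paralogs always named; for likeness the 5 highest, without predicted genes, small RNAs and olfactory receptors. Alternatives tried were a replicate block, each array left out, dim-gene filters, the mean of rows, quantile normalization, median centring, a trend and robust prior, array weights, an ordinary statistic and all rows.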

Additional observations from a re-analysis of the deposited data

How the results depend on the processing

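None of the 6 enzymes changed sign in 15 alternatives, but many of these could not turn a sign. The replicate block, both dim-gene filters, the mean of rows, the trend and robust prior and the ordinary statistic leave each difference as it is. Leaving out an array cannot turn the sign of Hmgcs1 or Fdps either, whose groups do not overlap. The count of genes at an adjusted p under 0.05 by limma, 0 as reported (2594 at an unadjusted p under 0.05), was 58 with genes under the median level untested, 26 with those under 25% of the ranking untested, 16 with a trend and robust prior, 5 with quantile normalization again, and 2 each with the mean of rows, median centring and array weights; it ran from 0 to 2 with an array left out (2 without replicate 1 with FGF21), and stayed 0 with the replicate block, the ordinary statistic and all rows. Of the 6 enzymes, 2 passed with genes below the median left out (Fdps and Hmgcs1), and 1 (Fdps) with the lowest 25% untested or the trend and robust prior. Fewer tests follow from the filters by construction, but the unadjusted p of Fdps and Hmgcs1 moved with them as well. For the other settings the cause was not tested.

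At an adjusted p under 0.1 the reported counts were 28 genes and 1 enzyme. The enzyme count was 2 (Fdps and Hmgcs1) without replicate 1 with FGF21, with either filter, the trend and robust prior, median centring or array weights, and 0 without replicate 2 with FGF21 or any 1 array without FGF21, with quantile normalization again and with the ordinary statistic. The gene count was 0 to 16 with an array left out, 0 with all rows or the ordinary statistic, 156 and 64 with the filters, 83 with the trend and robust prior, 6 with quantile normalization again, and 50 with median centring or array weights. At an unadjusted p under 0.05 the 2594 genes were 1710 without replicate 2 with FGF21 and 1700 with genes below the median left out. Of the 2594, 56.3% were higher with FGF21 (75.2% and 62.1% with the filters); median centring gave 70.3% and put 4 enzymes past that limit, Mvk at 0.22 and Pmvk at 0.26 included.

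With an array left out, the median difference of the enzymes ran from 0.191 to 0.292, and that of the ketone body list from -0.0834 to -0.0192. The ketone body list had 0.0286 with genes below the median left out and -0.0779 with quantile normalization again, which also put the SREBP list at 0.144. The paralog list had -0.0133 with the lowest 25% untested. Acat3 ran from -0.0152 to 0.177 and Idi2 from -0.142 to 0.119 with an array left out. Idi2 was also 0.0345 with the mean of rows, 0.0136 with quantile normalization again, 0.00666 with median centring and 0.0649 with array weights.

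Deviations of same-numbered arrays, which share no stated origin, correlated at 0.103, 0.158 and 0.00653, and for 4 of 6 arrays the best match was the same-numbered one. With the replicate block, 46 genes and 2 enzymes (Fdps and Hmgcs1, both at 0.0605) had an adjusted p under 0.1, and 0 genes were at 0.05.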
